A study of Rattus norvegicus with 6 samples.

Results

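Peg3 and 8 other imprinted genes, Peg10, Igf2, Igf2r, Dlk1, Cdkn1c, Plagl1, Grb10 and Mest, were described in rat liver after faecal microbiota transplantation. The 9 genes were chosen by their symbols with the differences between these livers already known, so each difference of theirs between the groups is given as a description and without a test. Of the 30957 genes in the deposited table, 8 carried one of the 9 names, and no row was named Peg10. RNA-seq covered the livers of 3 rats of the t-PBS group and 3 of the t-DHEA group, out of 6 recipients each. All were female Sprague Dawley rats, bought at 3 weeks of age, whose gut microbiota had been depleted with antibiotics over 27 days. They then received a daily gavage for 14 days, of microbiota from PBS-injected donors in t-PBS rats and from donors injected with dehydroepiandrosterone (DHEA) in t-DHEA rats. The donor pellets were pooled, so the rats of a group shared their inoculum, and no recipient was itself injected with DHEA. The comparison addresses whether an inoculum from donors given an androgen precursor altered gene expression in the recipient liver. The study also found more DHEA sulfate in faeces of the DHEA-injected donors, at levels it considered too low to cause the phenotype.

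An imprinted gene is expressed mainly from the copy inherited from 1 parent, because the parental copies carry different DNA methylation at a control region. Many such genes govern growth before birth and are silenced in the liver after it. Peg3, Peg10, Mest, Plagl1, Dlk1 and Igf2 are expressed from the paternal copy in rodents, and Igf2r, Cdkn1c and, outside the brain, Grb10 from the maternal copy. The counts do not separate the parental copies, so imprinting itself was not measured here.

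Promoter sequence is shown first for Peg3, Mest and Igf2r, the members with a mean level above 1 FPKM, because the methylation that marks imprinted genes falls on CpG dinucleotides. Whether the promoter of a member lies within its control region was not examined. Each line gives the 250 bases before the RefSeq transcription start in build GRCr8, 5′ to 3′ on the strand of the gene, with each CpG in capitals. The Peg3 sequence is chr1:76130744-76130993 on the plus strand and holds 11 CpG. That of Mest is chr4:60321564-60321813 on the plus strand with 15 CpG, and that of Igf2r is chr1:50526628-50526877 on the plus strand with 23 CpG.
Peg3: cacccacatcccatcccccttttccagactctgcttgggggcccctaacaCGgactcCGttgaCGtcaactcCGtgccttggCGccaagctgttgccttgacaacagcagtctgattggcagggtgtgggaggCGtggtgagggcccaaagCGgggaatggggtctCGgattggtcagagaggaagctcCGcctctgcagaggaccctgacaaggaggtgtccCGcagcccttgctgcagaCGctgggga
Mest: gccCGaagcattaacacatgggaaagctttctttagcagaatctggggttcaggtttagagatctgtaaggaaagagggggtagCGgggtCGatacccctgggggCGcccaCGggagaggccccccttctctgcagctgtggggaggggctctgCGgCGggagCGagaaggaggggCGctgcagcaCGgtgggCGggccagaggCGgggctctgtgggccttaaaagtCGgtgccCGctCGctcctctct
Igf2r: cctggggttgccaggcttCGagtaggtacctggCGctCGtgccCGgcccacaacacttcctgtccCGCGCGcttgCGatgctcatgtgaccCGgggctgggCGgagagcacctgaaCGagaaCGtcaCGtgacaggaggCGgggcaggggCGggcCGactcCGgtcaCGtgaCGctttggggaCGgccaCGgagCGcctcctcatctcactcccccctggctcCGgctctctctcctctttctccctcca

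In windows from 250 bases before to 50 after the start, RefSeq sequences matched 8 of the 9 members by symbol, with 2 starts for Igf2. The observed over expected CpG ratio was 0.555 for Peg3, 0.584 for Mest and 0.869 for Igf2r, against a median of 0.392 over all 33469 promoters of this length. It reached 1.04 for Dlk1 and 0.969 for Grb10, and 8 of the 9 windows were above the median. The exception was the second Igf2 start, at 0.280. Dlk1, whose window held the highest ratio of the 9, was also the member without any count in these livers. The hexamer TGCCGC, the motif of the zinc finger protein Zfp57 that maintains methylation at imprinted control regions, was in 5 of the 9 windows on either strand: those of Dlk1, Grb10, Peg10, Plagl1 and the first Igf2 start. It was in 11.7% of all promoters, and in 27.3% of the 8777 promoters with a G+C content of at least 60%, a content that all 9 windows had. The YY1 motif GCCATNTT was in 0 of the 9 windows and in 6.97% of all promoters. The end of the first motif has the letters that begin the second, so that the motifs can overlap, and a match or its absence describes these windows only.

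**Figure D1:**
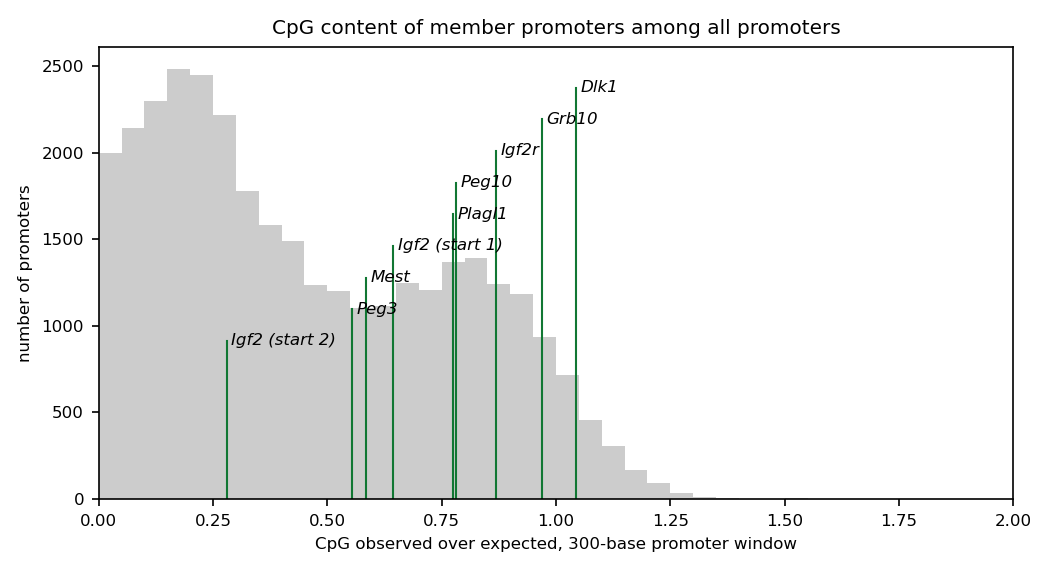
Grey bars give the number of promoters (vertical axis) by the observed over expected CpG ratio of the 300-base window (horizontal axis), and each green line marks a member's window at its ratio, its height serving only to separate the labels. Peg3 and Mest lie at 0.555 and 0.584, and the first Igf2 start is above, and the second below, the median of 0.392.

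Each liver had between 12348511 and 14316886 counts on genes, and the groups overlapped in this depth. Hepatocyte markers were present throughout, and albumin alone took 10.6% to 13.5% of the counts of each liver. After low counts were filtered with edgeR, 12210 genes remained, of which 0 were below 0.05 by the quasi-likelihood test of edgeR once p was adjusted, 634 were before adjustment, and DESeq2 called 24 after adjustment. The criteria of the study, which take p before adjustment (under 0.05) together with a fold difference over 1.2, are used below although no adjusted value of edgeR backs them. Where no gene differs, a share of about 0.05 of genes has an unadjusted p below 0.05. The criteria were met by 4.95% of the genes tested, so meeting them does not by itself set a gene apart. Separate rats stand behind the 6 libraries, and the 3 of a group measure the spread between rats that shared 1 inoculum.

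The level of the 8 genes was compared by FPKM, a level per length of gene model. More than 3 counts in every liver were found for 6 of them, Peg3, Mest, Igf2r, Grb10, Cdkn1c and Igf2. Peg3 had the highest mean level, at 12.2 ± 3.72 FPKM (SD, n = 6), which placed it at the 79.3 percentile of the 17187 genes with a count in any liver. Mest followed with 11.0 ± 2.66 FPKM (SD, n = 6), and Igf2r with 7.28 ± 0.533 FPKM (SD, n = 6). Peg3 and Mest were not separated by their spread, since Peg3 was the higher of the pair in 4 of 6 livers, whereas Mest was above Igf2r in all 6.

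The other members lay below 1 FPKM on average. Grb10 had 0.721 ± 0.207 FPKM, Cdkn1c 0.496 ± 0.193 FPKM, Igf2 0.246 ± 0.0759 FPKM and Plagl1 0.106 ± 0.0648 FPKM (SD, n = 6 each). In this order, each gene was above the next in 5 of 6 livers, so that neighbours were not fully separated, but Igf2r was above Grb10 in every liver. Dlk1 had no count in any liver, which allows up to 3 counts or 0.210 to 0.243 CPM (counts scaled to library size) depending on the liver, for counting error only. Rows named Rps6, Rpl8 and Hprt1, genes that are used in all cells, were also at 0 in all 6 livers, so that a 0 throughout need not mean absence of the RNA.

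**Figure D2:**
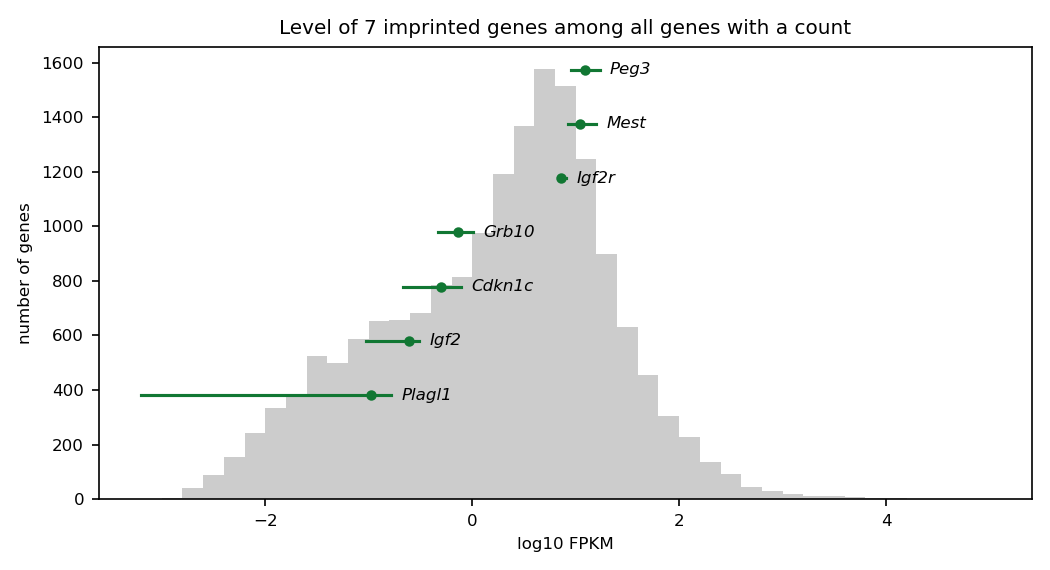
Grey bars give the number of genes (vertical axis) by mean level over the 6 livers (horizontal axis, log10 FPKM), and green points and lines give the mean and the range over livers of 7 members, placed at arbitrary height. Peg3, Mest and Igf2r lie at 12.2, 11.0 and 7.28 FPKM, right of the other members, and the line of Plagl1 is drawn to the left edge because 1 liver had no count.

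Peg3 encodes a large zinc finger protein linked to fetal growth, cell death signalling and maternal behaviour. The gene, ENSRNOG00000014791, lies on chromosome 1 of Rnor_6.0 from 70222964 to 70237443. It had 1094, 1101 and 1004 counts in t-PBS rats 1, 2 and 3, and 1205, 1907 and 1882 counts in t-DHEA rats 1, 2 and 3. After scaling to library size this was 76.7, 81.2 and 75.8 CPM in t-PBS livers and 99.5, 143 and 145 CPM in t-DHEA livers. Every t-DHEA liver was above every t-PBS liver, and t-DHEA rat 1 lay closer to the t-PBS livers than to the other t-DHEA livers.

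The mean of Peg3 was 77.9 ± 2.90 CPM in t-PBS livers and 129 ± 25.8 CPM in t-DHEA livers (SD, n = 3 each), which was 1.66-fold higher. The log2 fold change was 0.73 (standard error 0.14). Omitting t-DHEA rat 3 gave 0.64 and omitting t-DHEA rat 1 gave 0.89. Since bulk RNA was sequenced, more cells of a type and more RNA per cell cannot be told apart.

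Other rows of the Peg3 domain carried few reads. Zim1, the next imprinted gene of the cluster, had 0, 2 and 3 counts in t-PBS and 0, 2 and 5 counts in t-DHEA livers. Usp29, which shares the control region of Peg3, had no count in any liver, nor did Apeg3, an antisense transcript that lies within Peg3. With no information on strand, reads of such an antisense RNA and of Peg3 cannot be told apart.

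Marker genes of other cells also differed between the groups, and their part in the values of Peg3 was not tested. The 6 red cell markers summed to 409 to 819 CPM in t-DHEA against 241 to 385 CPM in t-PBS livers, with the highest sum in t-DHEA rat 2. Of the 5 tested, 4 were upregulated, beside 1.97% of all genes tested, and Hbb among these 4 had overlapping groups. The 6 hepatocyte markers summed to 129400 to 155300 CPM in t-DHEA and 127800 to 139600 CPM in t-PBS livers, and their median log2 fold change was 0.036. Of these 6, Tat, which breaks down tyrosine, was upregulated, with a log2 fold change of 0.68. Among t-DHEA livers Tat, like Peg3, was lowest in rat 1, at 630 CPM against 1044 and 992 CPM. Apoa1, Ttr and Serpina1 were also lowest in that liver, whereas Alb and Cps1 were highest there. Of 6 Kupffer cell markers none met the criteria, with 0 having an unadjusted p below 0.05 in edgeR or DESeq2, and Vsig4, Cd68 and Marco had log2 fold changes of 0.21, -0.23 and 0.53. None of the markers in these 3 lists was at 0 in all livers, although Ahsp of the red cell list was below the filter.

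Mest encodes an enzyme-like membrane protein of mesodermal tissue and lies on chromosome 4 from 58053041 to 58063138. Its counts were 129, 157 and 130 in t-PBS and 131, 213 and 111 in t-DHEA livers. The groups overlapped, with both the highest and the lowest liver in t-DHEA, at 15.9 and 8.58 CPM. The log2 fold change of 0.22 (standard error 0.22) became -0.06 when t-DHEA rat 2 was omitted.

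Plagl1 encodes a zinc finger transcription factor that restrains proliferation and regulates other imprinted genes, and lies on chromosome 1 from 7252349 to 7259035. It had 10, 10 and 6 counts in t-PBS and 9, 0 and 4 counts in t-DHEA livers. The groups overlapped through t-DHEA rat 1. Plagl1 was below the filter, so it was not fitted.

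**Figure D3:**
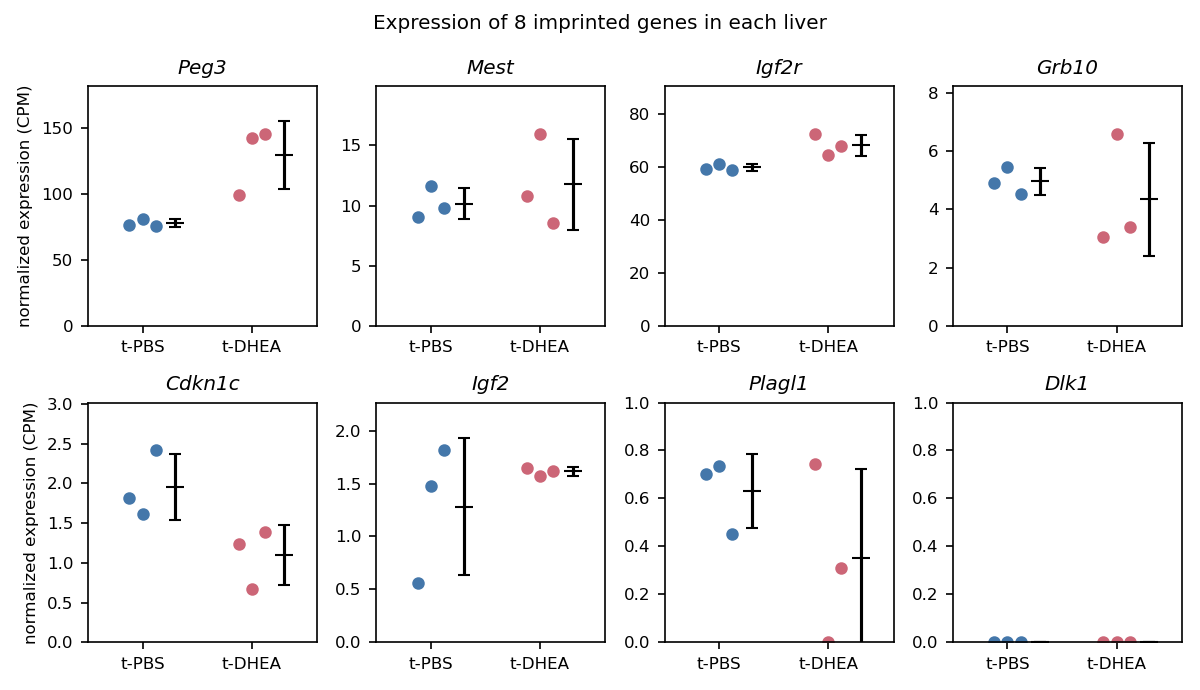
Each panel plots normalized expression (CPM, linear axis from 0) of 1 gene, with a point for each of 3 t-PBS (blue) and 3 t-DHEA (red) livers in order of rat number and the group mean ± SD in black, the lower bar of Plagl1 running below the axis. The groups do not overlap for Peg3 (75.8 to 81.2 against 99.5 to 145 CPM), Cdkn1c and Igf2r, and Dlk1 is at 0 in all 6 livers.

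Igf2 encodes insulin-like growth factor 2, the main growth factor of the fetus, and Igf2r its clearance receptor, which also carries lysosomal enzymes tagged with mannose-6-phosphate. Igf2 (chromosome 1, 215828102 to 215846911) had 8, 20 and 24 counts in t-PBS and 20, 21 and 21 counts in t-DHEA livers. The t-DHEA livers, at 1.57 to 1.65 CPM, lay within the range of the t-PBS livers, of which rat 1 was lowest at 0.561 CPM. The log2 fold change was 0.34 (standard error 0.40), or -0.02 when that rat was omitted. Igf2bp3, an RNA-binding protein of the Igf2 message that was picked out after its values were seen, was also lowest in t-PBS rat 1, at 5.61 CPM against 17.0 to 31.9 CPM in the other 5 livers.

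Igf2r (chromosome 1, 48176106 to 48264477) had 847, 832 and 780 counts in t-PBS and 878, 862 and 878 counts in t-DHEA livers. At 59.4, 61.4 and 58.9 CPM the t-PBS livers lay below the t-DHEA livers, at 72.5, 64.5 and 67.8 CPM. The difference was small, 1.14-fold, with a log2 fold change of 0.19 and a standard error of 0.09. On the FPKM scale the groups overlapped, since t-PBS rat 2 had 7.27 and t-DHEA rat 2 had 7.25 FPKM. Igf2r was also among the least variable genes, with a biological coefficient of variation of 0.0992 that placed it at the 3.96 percentile of the genes tested. Igf2, at 0.271, was at the 92.6 percentile.

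Grb10 encodes an adaptor that binds the insulin and IGF1 receptors and dampens their signal. The gene lies on chromosome 14 between 92021851 and 92117923. It had 70, 74 and 60 counts in t-PBS and 37, 88 and 44 counts in t-DHEA livers. The t-DHEA livers spread around the t-PBS livers, with rats 1 and 3 below them at 3.06 and 3.40 CPM and rat 2 above them at 6.58 CPM. The log2 fold change of -0.19 (standard error 0.29) rested on single livers: omitting t-DHEA rat 1 gave 0.01, and omitting t-DHEA rat 2 gave -0.62. Mest was highest in the same liver as Grb10.

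Cdkn1c encodes p57, an inhibitor of cyclin-dependent kinases that stops the cell cycle. The gene lies on chromosome 1 between 216661080 and 216663721. It had 26, 22 and 32 counts in t-PBS and 15, 9 and 18 counts in t-DHEA livers. The groups did not overlap, with 1.95 ± 0.412 CPM in t-PBS and 1.10 ± 0.378 CPM in t-DHEA livers (SD, n = 3 each), which was 1.77-fold lower. The log2 fold change was -0.83 (standard error 0.35). Omitting t-DHEA rat 3 gave -1.03 and omitting t-DHEA rat 2 gave -0.56.

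Markers of mesothelium, the cell layer on the liver capsule, were also lower in the t-DHEA group, and their part in the difference of Cdkn1c was not tested. The 8 mesothelial markers summed to 39.3, 45.5 and 42.1 CPM in t-PBS rats 1, 2 and 3 and to 21.5, 3.29 and 31.4 CPM in t-DHEA rats 1, 2 and 3. Of the 7 tested, 5 were downregulated, among them Upk3b, Muc16 and Msln with log2 fold changes of -2.56, -2.59 and -1.87. No marker of the list was at 0 in all livers, and Wt1 was below the filter. Cdkn1c and the mesothelial sum were both lowest in t-DHEA rat 2, but among t-PBS livers rat 2 had the lowest Cdkn1c and the highest mesothelial sum. Of 5 proliferation markers, none met the criteria, 0 having an unadjusted p below 0.05 in edgeR or DESeq2, and their median log2 fold change was -0.58. Bub1, Ccnb1 and Mki67 had log2 fold changes of -0.47, -0.86 and -0.58, with standard errors of 0.41, 0.77 and 0.56. The 5 proliferation markers summed to 13.25, 40.48 and 12.15 CPM in t-PBS rats 1, 2 and 3. In t-DHEA rats 1, 2 and 3 the sums were 13.71, 5.31 and 25.03 CPM, so the groups overlapped and t-PBS rat 2 was the highest.

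Of the 6 members that passed the filter, 2 met the criteria, Peg3 higher and Cdkn1c lower in t-DHEA livers. Over all genes tested the criteria were met by 4.95%, with 1.97% higher and 2.98% lower. Groups without overlap were found for 3 of the 6, against 10.1% of all genes tested. As the members were chosen with this contrast known, nothing is read from these counts. The median log2 fold change of the 6 was 0.20, beside 0.0013 over all genes tested. All 3 paternally expressed members that were fitted, Peg3, Igf2 and Mest, had a positive log2 fold change, and of the 3 maternally expressed members Igf2r had one while Cdkn1c and Grb10 had negative ones; the signs of Igf2, Mest and Grb10 each turned when 1 liver was left out.

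Across the 6 livers, Pearson's r of log2 expression was -0.79 between Peg3 and Cdkn1c, 0.61 between Peg3 and Igf2r and 0.33 between Peg3 and Mest. It was 0.65 between Mest and Grb10. These values are descriptions over 6 livers that share the group difference and the library scaling. The genes whose pattern was most like that of Peg3, among 10852 genes with a symbol and at least 1 CPM, were Grhl2, Rbm45, Dennd1a, Ppp6r3 and Car2, with r from 0.97 to 0.98. Ppp6r3, at 65.1 to 69.0 CPM in t-PBS livers, had 81.4, 104 and 94.8 CPM in t-DHEA livers. Car2 had 16.3 to 18.9 CPM in t-PBS and 19.9, 31.9 and 30.4 CPM in t-DHEA livers. In both, as in Peg3, t-DHEA rat 1 was the lowest of its group, which follows from picking these genes by their likeness to Peg3. An r of at least 0.95 was found for 16 of the genes compared.

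The nearest fitted gene on each side, within 300 kb, was examined next for the 6 fitted members. This gave 10 genes, at distances from 1.70 to 259 kb. None met the criteria, 0 having an unadjusted p below 0.05 in edgeR or DESeq2, and their log2 fold changes ran from -0.28 for Aurkc, beside Peg3, to 0.38 for Kcnq1, beside Cdkn1c. Slc22a18, an imprinted transporter on the other side of Cdkn1c, had 104 to 122 CPM in t-PBS and 104 to 137 CPM in t-DHEA livers. Copg2, which adjoins Mest, had a log2 fold change of 0.12 with a standard error of 0.11.

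A list of 58 other genes imprinted in mouse was compared in the same fit. The list was not limited to genes imprinted in liver, and imprinting of each in rat or in liver was not tested. Of these, 50 had a row, 30 passed the filter and 9 had no count in any liver, Magel2, Rtl1 and Ins2 among them. H19 and Meg3, maternally expressed non-coding RNAs, had no row. The 5 with the highest FPKM were Cd81, Pon3, Slc38a4, Pon2 and Slc22a18, at 371, 216, 154, 123 and 75.3 FPKM on average, all above Peg3. Slc38a4, a paternally expressed amino acid transporter, had a log2 fold change of 0.04 with a standard error of 0.19, and Cd81, a membrane protein found on many cells, had one of -0.03 with a standard error of 0.10. Pon2 and Pon3, enzymes that hydrolyse lactones, had log2 fold changes of 0.06 and 0.16.

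Of the 30 tested, 17 had a positive log2 fold change, with a median of 0.030, and 1 met the criteria. That gene was Snrpn, which encodes a splicing protein, with 8, 11 and 18 counts in t-PBS and 21, 23 and 29 counts in t-DHEA livers. Its log2 fold change was 1.06 (standard error 0.37; adjusted p = 0.900, edgeR). Omitting single livers ended the call in 3 of 6 cases, those of t-PBS rats 1 and 2 and of t-DHEA rat 3, with log2 fold changes of 0.80, 0.99 and 0.93. Snurf, which has the same start in the table and is made from the same transcript, had 20, 17 and 8 counts in t-PBS and 14, 16 and 9 counts in t-DHEA livers. The split of reads between these overlapping rows is uncertain. Added together after their values were seen, they gave 28, 28 and 26 counts in t-PBS and 35, 39 and 38 counts in t-DHEA livers. The next in order of p, Jade1, Dhcr7, Pon3 and Nap1l4, had log2 fold changes of 0.27, -0.21, 0.16 and 0.13 and did not meet the criteria. Sgce, which shares a promoter region with Peg10 and was picked out for that reason, had 47, 62 and 50 counts in t-PBS and 46, 39 and 37 counts in t-DHEA livers, and a log2 fold change of -0.28 (standard error 0.22). None of the 18 genes tested that were listed as maternally expressed in mouse met the criteria, 0 having an unadjusted p below 0.05 in edgeR or DESeq2.

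**Figure D4:**
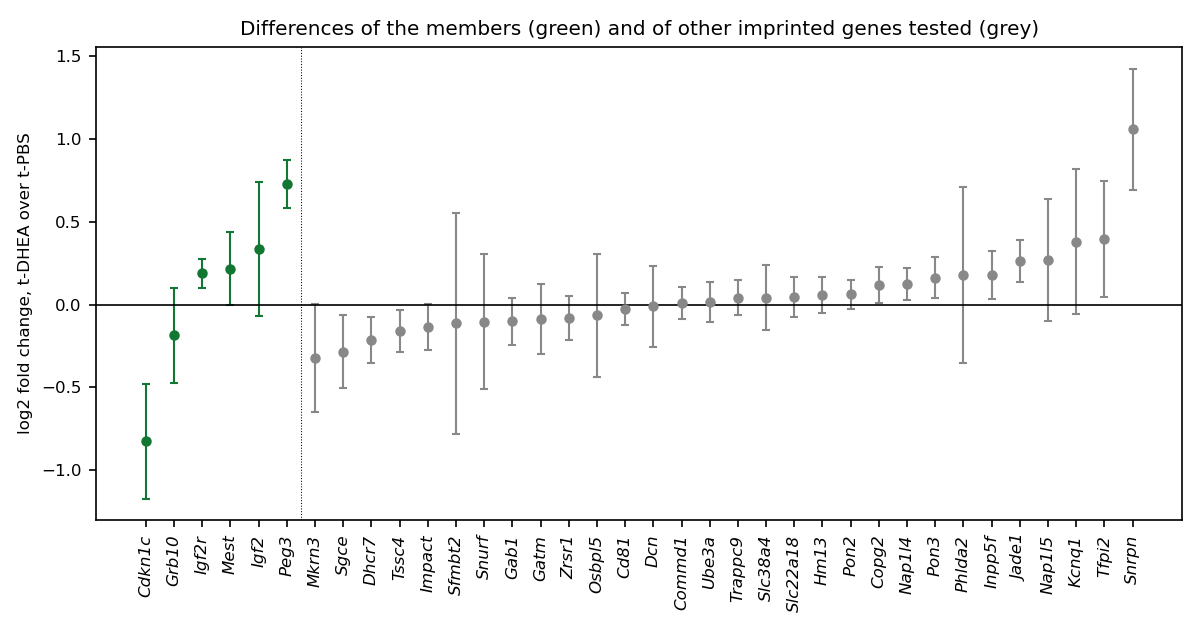
Points give the log2 fold change of t-DHEA over t-PBS (vertical axis) with its standard error, for the 6 fitted members in green and 30 other genes imprinted in mouse in grey, each group ordered by value. Peg3 (0.73) and Cdkn1c (-0.83) stand at the ends of the members, and Snrpn (1.06) at the end of the other genes.

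The IGF and insulin pathway, on which Igf2, Igf2r and Grb10 act, was followed through 13 genes. Of 12 tested, 5 were downregulated and 0 upregulated, beside 2.98% and 1.97% of all genes tested. The 12 had a median log2 fold change of -0.22. The binding proteins, which hold IGFs in tissue and blood, made up 4 of the 5. Igfbp5 had 5.12, 5.38 and 5.06 CPM in t-PBS and 1.98, 1.05 and 1.47 CPM in t-DHEA livers, a log2 fold change of -1.79 (standard error 0.25; adjusted p = 0.242, edgeR). Igfbp3, the main carrier in blood, had 112, 126 and 100.1 CPM in t-PBS and 56.2, 76.0 and 74.9 CPM in t-DHEA livers, a log2 fold change of -0.70 (standard error 0.14; adjusted p = 0.687, edgeR). For Igfbp6 the log2 fold change was -1.36 (adjusted p = 0.90, edgeR), and for Igfbp7 -0.35 (adjusted p = 0.80, edgeR). The groups did not overlap for these 4 binding protein genes, beside 10.1% of all genes tested, and all 4 met the criteria whichever liver was omitted. As the list was chosen with earlier results of these data known, this is a description and no sign of stability. The other binding protein genes, Igfbp4, Igfbp2 and Igfbp1, had overlapping groups and log2 fold changes of 0.14, -0.46 and 0.03 (standard errors 0.12, 0.61 and 0.66), and did not meet the criteria. The fifth gene, Irs1, a substrate of the insulin receptor, had overlapping groups, a log2 fold change of -0.32, and a call that held when t-PBS rat 2 or t-DHEA rat 1 was omitted and was lost for each of the other livers and with DESeq2.

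Neither Igf1 nor Insr met the criteria. Igf1, the growth factor secreted by liver, had 312 ± 56.7 CPM in t-PBS and 321 ± 35.4 CPM in t-DHEA livers (SD, n = 3 each), and Insr, the insulin receptor, had a log2 fold change of -0.04 with a standard error of 0.13. Igf1r was below the filter, with 6, 10 and 8 counts in t-PBS and 7, 8 and 13 counts in t-DHEA livers. Markers of stellate cells and fibroblasts, which summed to 1187 to 1331 CPM in t-PBS and 1019 to 1250 CPM in t-DHEA livers, had a median log2 fold change of -0.15, with 3 of 10 downregulated, Col1a1, Lum and Col3a1. No marker of that list was at 0 in all livers. The part of these cells and of the mesothelium, whose markers are given above, in the values of the binding proteins was not tested.

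**Figure D5:**
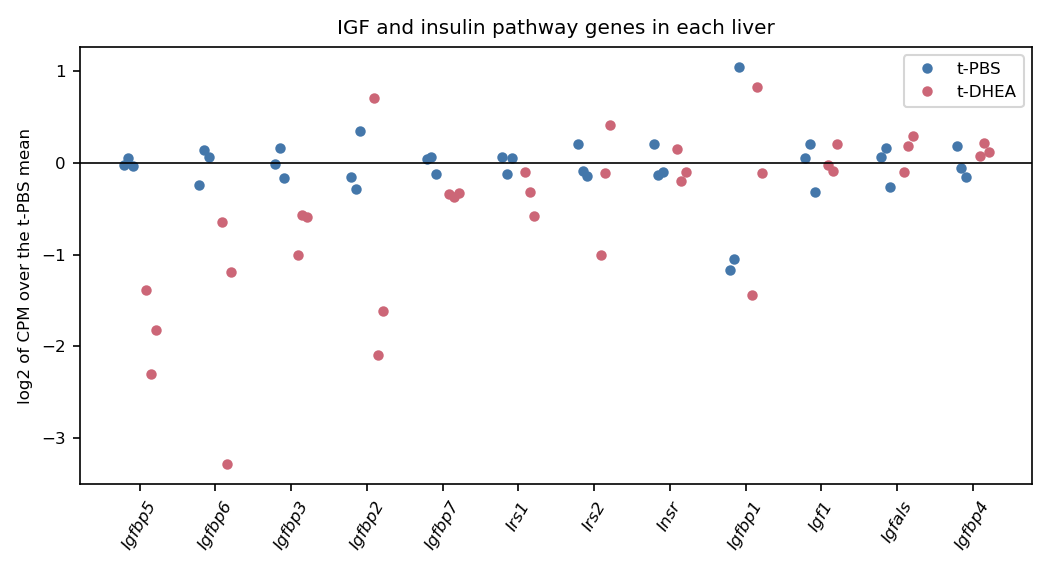
Points give, for each of 12 IGF and insulin pathway genes, the log2 of CPM in a liver over the mean of the t-PBS livers (vertical axis), with t-PBS livers in blue and t-DHEA livers in red, ordered from left to right by fold change. Igfbp5, Igfbp6, Igfbp3 and Igfbp7 have all 3 t-DHEA livers below the t-PBS livers, while Igf1 and Insr overlap.

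Relatives of the members were given by a list of 15 genes, of which 14 were tested and 1 was downregulated. That was Notch2, a receptor that can be bound by Dlk1, with a log2 fold change of -0.38 and overlapping groups. Its call was lost when t-PBS rat 1, t-PBS rat 2 or t-DHEA rat 2 was omitted. The kinase inhibitors Cdkn1a and Cdkn1b, of the same family as Cdkn1c, had log2 fold changes of -0.56 and -0.12, with standard errors of 0.41 and 0.12, and did not meet the criteria. M6pr, the smaller mannose-6-phosphate receptor beside Igf2r, had 44.7 ± 2.38 CPM in t-PBS and 41.3 ± 1.36 CPM in t-DHEA livers (SD, n = 3 each). Grb14, the relative of Grb10 that prevails in liver, had a log2 fold change of 0.07 with a standard error of 0.09.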

How the data were processed

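RNA-seq of 6 rat livers, 3 t-PBS and 3 t-DHEA by the labels, was analysed. Per the labels and the methods of the study, the authors filtered reads with Seqtk, mapped them to Rnor_6.0 with HISAT2 2.0.4 and made raw counts per gene with StringTie 1.3.0; the kit was TruSeq, and the annotation release and strandedness are not given in the sources used here. The authors also deposited FPKM, which were used for levels only and in an alternative. All value columns were mapped to a liver by name. The lowest chi-square per degree of freedom between 2 libraries was 15.3, so none was a duplicate.

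Counts were fitted with edgeR 4.0.16 in R 4.3.3 (default filter for low counts, TMM, quasi-likelihood test, t-DHEA against t-PBS, two-sided, no covariate), with Benjamini-Hochberg adjustment over 12210 genes. The study names edgeR on FPKM; that model needs counts, so the counts were used. Standard errors came from the test statistic. CPM use TMM library sizes, except the limit given for Dlk1, which uses the total counts of each liver. A gene counted as detected in a liver above 3 counts. Likeness was Pearson's r of log2(CPM + 0.1).

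The members and lists were chosen with earlier results of these data known. Lists held 157 genes, of which 147 matched by name, 1 by an older symbol and 9 did not. Named were all members; other imprinted genes that met the criteria, the 5 with the lowest p and the 5 with the highest FPKM; up to 3 with the lowest p, and those meeting the criteria, per pathway list; up to 3 per marker list; and the 5 most like Peg3. Other genes were named after their values were seen, as were the neighbours. Promoters came from RefSeq, build GRCr8; counts use Rnor_6.0 coordinates. Alternatives were DESeq2 1.42.0, RLE factors, other filters, limma 3.58.1 on log2 FPKM, a replicate block and each liver left out. The tests were checked on simulated counts. Serum, histology, 16S and metabolome data were not analysed here.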

Additional observations from a re-analysis of the deposited data

How the results depend on the processing

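Peg3 had log2 fold changes between 0.62 and 0.89 under the 13 alternatives; as the members were chosen with this contrast known, their values and counts here are descriptions and no sign of stability. Of 80 pairs of a summary result and an alternative, 67 were kept. A count was kept within 1.5 times, and the median of the members within 1 SD. The pairs of Peg3 were kept where the sign of its log2 fold change and its call stayed the same, as in all 13. Members meeting the criteria numbered 2 at first and 1 with DESeq2, where Cdkn1c missed them. They numbered 1 with at least 10 counts in every liver, which removed Cdkn1c and Igf2. Over livers left out the number ran from 1 to 2, and Cdkn1c met the criteria in 2 of these 6 fits. When t-DHEA rat 2 was omitted, the second was Grb10 in place of Cdkn1c. Other imprinted genes meeting the criteria numbered 1, but 0 with at least 10 counts in every liver and 2 with the rat number as a replicate block (Snrpn and Jade1), and 0 to 2 over livers left out. Genes of the IGF, relative and fetal lists numbered 8, and 4 to 9 over livers left out, the 4 being reached when t-PBS rat 1 or t-DHEA rat 2 was omitted. DEGs over all genes numbered 604, and 509 to 719 over livers left out. The median of the fitted members ran from 0.058 to 0.27, and Peg3 from 0.64 to 0.89. The log2 fold change turned for Mest when t-DHEA rat 2 was omitted (-0.064, highest over livers 0.40), for Grb10 when t-DHEA rat 1 was (0.0091, lowest -0.62) and for Igf2 when t-PBS rat 1 was (-0.025, highest 0.67). The cause of these shifts was not tested. Detection in all 6 livers held for 6 members above 3 or 0 counts and for 4 above 10.

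For rats of the same number, deviations from the group means had r of -0.057, -0.059 and -0.055. Such deviations cancel within a group by construction, so these values cannot show what the rats shared. Whether rats of the same number had more in common than that number was not tested. With the replicate block 539 genes met the criteria, and 2 members did. Depth limited Plagl1, Cdkn1c, Igf2 and Snrpn, with at most 32 counts in any liver.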

Other observations

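Genes of the fetal liver, where several of these imprinted genes are most active, were listed together with repressors that silence Afp after birth. Of 11 listed, 7 passed the filter. The fetal gene Gpc3 and the repressor Zbtb20 were downregulated, and 0 of the 7 were upregulated. Afp, the albumin-like protein of fetal blood, had 6.87, 9.96 and 8.53 CPM in t-PBS and 12.3, 7.11 and 9.04 CPM in t-DHEA livers, with overlapping groups. Gpc3, a glypican of fetal liver, had 5.19, 3.54 and 2.34 CPM in t-PBS and 2.31, 0.748 and 2.32 CPM in t-DHEA livers, and a log2 fold change of -1.05 with a standard error of 0.43. Zbtb20, a repressor of Afp after birth, had a log2 fold change of -0.82 with a standard error of 0.30, and Zhx2, another such repressor, had one of 0.26 with a standard error of 0.16. Omitting single livers ended the call in 3 of 6 cases for each of Gpc3 and Zbtb20, with t-PBS rat 1 and t-DHEA rat 2 among them for both. Hmga2, Igf2bp1 and Trim71 had no count in any liver.

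Bile duct, sinusoidal endothelial and smooth muscle markers completed the lists. Of the 5 bile duct markers tested, 2 were downregulated, Krt19 and Krt7, of which the mesothelial list also holds Krt19. Of 7 endothelial markers tested, 1 was upregulated, Kdr, with a log2 fold change of 0.36, and Pecam1 had no row. Of these 7, 4 had a negative log2 fold change, and their median was -0.0059. Of 5 smooth muscle markers tested, 1 was upregulated, Tagln, with a log2 fold change of 1.06. Acta2 and Lmod1 had negative ones of -0.26 and -0.25, the other 3 had positive ones, and the median was 0.097. Over all genes tested, 1.97% were upregulated and 2.98% downregulated.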
